A study of Homo sapiens with 4 samples.

Results

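The 10 genes described here encode ligands, receptors, a signal transducer, inhibitors and targets of the transforming growth factor β (TGF-β) pathway: TGFB1, TGFB2, LTBP1, TGFBR1, TGFBR2, SMAD3, PMEPA1, SKIL, TGFBI and SNAI2. They were picked by gene symbol, with earlier results of these data known. Each of the 10 symbols matched 1 of the 57905 genes listed for each library. RNA came from A549 cells, a line derived from a human lung adenocarcinoma and labelled as non-small cell lung cancer, grown in DMEM with 10% fetal bovine serum. There were 2 libraries of cells given 0.6 µM GMI for 24 h and 2 libraries of cells labelled as control, also at 24 h, and what the controls received in place of GMI is not given in the sources used here. GMI, from the fungus Ganoderma microsporum, belongs to the immunomodulatory proteins of fungi, and the stated purpose was to profile genes that differ in expression after it. All 4 libraries are of 1 cell line. Whether the libraries within a group are separate cultures is not stated, and the p-values therefore cover only the spread seen between these samples, possibly a technical one.

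TGF-β ligands are secreted in a latent form, held by a propeptide that is bound to latent TGF-β binding proteins in the matrix. Once released, a ligand brings together type II and type I receptor kinases, which phosphorylate SMAD2 and SMAD3, and these enter the nucleus with SMAD4. In epithelial tumour cells the pathway is known for inducing matrix genes, its own inhibitors and transcription factors of epithelial-mesenchymal transition.

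Levels are FPKM, fragments per unit of gene length and of sequencing, as the authors gave them, and because they are per length, levels of different genes can be set side by side. The library denominators, recovered from the steps between FPKM values, lay between 20560000 and 24090000 fragments. Between 11301 and 11472 genes a library reached 1 FPKM, and mitochondrially encoded genes held 13.7% and 12.5% of the summed FPKM in the GMI libraries and 13.3% and 13.7% in the control libraries. Of the marker genes, the epithelial keratin gene KRT8 stood at 1914 and 1981 FPKM in the GMI libraries and 1928 and 1841 in the control libraries, while EPCAM and the alveolar genes SFTPC, SFTPB and NKX2-1 stayed below 1 FPKM in every library. The 9 epithelial markers summed to 3175 and 3186 FPKM in the GMI libraries, against 3991 and 3807 in the control libraries, and 4 of the 9 reached 1 FPKM in a library. Most of that difference was KRT7, with 518 and 502 FPKM in the GMI libraries and 1176 and 1118 in the control libraries. KRT18 was lower too, with 740 and 700 FPKM in the GMI libraries and 885 and 846 in the control libraries. The other way went KRT19 (0.96 and 0.88 against 0.44 and 0.36) and MUC1 (1.7 and 1.42 against 1.22 and 1.28). The 4 leukocyte markers summed to 6.26 and 4.55 FPKM in the GMI libraries and 3.11 and 3.16 in the control libraries, with PTPRC and CD3E listed at 0 in all 4. Most of the leukocyte marker difference was CD14, with 4.61 and 3.61 FPKM in the GMI libraries and 2.11 and 2.0 in the control libraries. The groups overlapped for CD68. Of the 2 endothelial and 5 fibroblast markers measured, 0 reached 1 FPKM, and their sums were 0.07 and 0.02 (endothelial) and 1.28 and 1.36 FPKM (fibroblast) in the GMI libraries, against 0.01 and 0.01 and then 1.34 and 1.27 in the control libraries. The part of the epithelial and leukocyte marker differences in the results below was not tested.

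After GMI, the RNA of the ligand gene TGFB1 rose, while that of the ligand gene TGFB2, of the feedback inhibitor PMEPA1, of the matrix gene TGFBI and of the transcription factor gene SNAI2 fell. The receptor genes TGFBR1 and TGFBR2, the signal transducer SMAD3, the latency gene LTBP1 and the corepressor gene SKIL did not pass the test. All 10 genes lay above the filter on low values (at least 1 FPKM in at least 2 libraries), and 1 rose, 4 fell and 5 did not pass an adjusted p of 0.05 in limma, a linear model with a spread estimate shared between genes. Over the 11598 genes tested, 15.4% were called, 9.3% upward and 6.12% downward. The median log2 fold change was -0.19 over the 10 genes and -0.01 over all genes tested. Fold changes are on the scale log2(FPKM + 1) throughout, unless another pseudocount is named. In 9 of the 10 genes both GMI libraries lay on the same side of both control libraries, as they did in 60.2% of all genes tested. Since the 10 were chosen with earlier results of these data known, these contrasts with all genes cannot measure an enrichment. With each library centred on its median, 2 of the 10 rose and 4 fell, beside 1086 and 652 of all 11598 genes tested. Leaving out either control replicate lowered the number of calls, among the 10 as among all genes tested. The median log2 fold change of the 10 was -0.25 without control replicate 1 and -0.14 without control replicate 2. Without a filter on low values limma called 0 of the 10, with 8 at an unadjusted p under 0.05. Of all 26758 genes it then called 0 upward and 1 downward, with 4500 at an unadjusted p under 0.05.

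**Figure D1:**
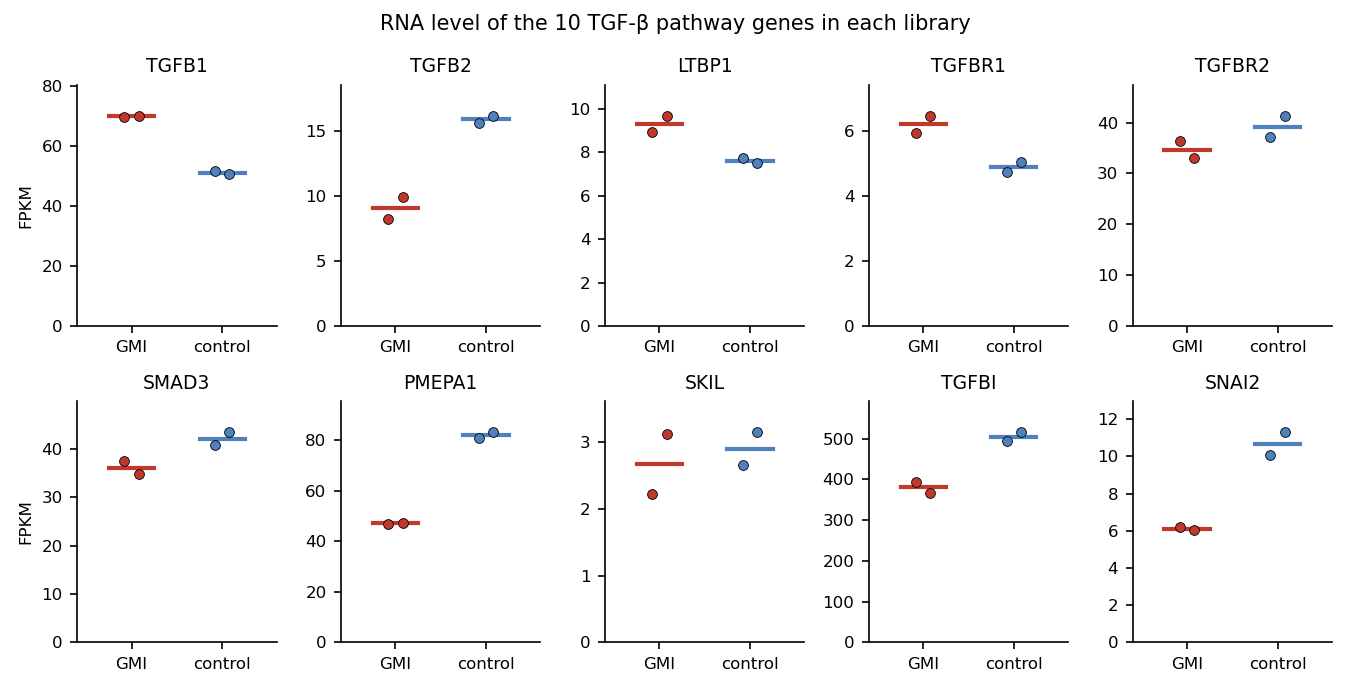
FPKM of the 10 genes (vertical axes, each from 0) in the 2 GMI and the 2 control libraries. Points are libraries and horizontal lines are the mean of 2. TGFB1, LTBP1 and TGFBR1 were higher in both GMI libraries than in both controls, SKIL overlapped, and the other 6 genes were lower in both.

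The levels spanned a wide range. TGFBI was the most abundant of the 10 in both groups, with a mean of 381 FPKM after GMI and 504 in controls, and SKIL the least, with 2.67 FPKM after GMI and 2.91 in controls. The order below TGFBI differed between the groups. After GMI, TGFB1 came next (70.0 ± 0.17 FPKM, SD, n = 2) and then PMEPA1 (47.1 ± 0.33), while in controls PMEPA1 (81.8 ± 1.63) stood above TGFB1 (51.2 ± 0.60), and the libraries of these neighbours did not overlap in either group. SMAD3 and TGFBR2 followed in both groups, and their libraries overlapped in both. Among the lower genes, the order after GMI was LTBP1, TGFB2, TGFBR1, SNAI2 and SKIL, where the libraries of LTBP1 and TGFB2 overlapped, as did those of TGFBR1 and SNAI2. In controls the order was TGFB2, SNAI2, LTBP1, TGFBR1 and SKIL, and no neighbours among these overlapped. Ranked by mean level among the genes tested, TGFBI lay at the percentile 99.3, TGFB1 at 93.8, PMEPA1 at 94.2, TGFB2 at 72.0 and SKIL at 30.1.

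The 2 ligand genes moved in opposite directions. TGFB1 (ENSG00000105329), the ligand made by most cell types, stood at 69.8 and 70.1 FPKM in the GMI libraries and at 51.6 and 50.8 in the control libraries. Both GMI libraries were above both controls, and the gap between the groups, 18.2 FPKM, was 21.4 times the larger of the ranges within a group. The mean was 36.6% higher, and the log2 fold change was 0.44 with an SE of 0.055 (adjusted p = 0.00436 in limma). TGFB2 (ENSG00000092969), a ligand that depends on the co-receptor betaglycan for strong binding to its receptors, stood at 8.21 and 9.91 FPKM in the GMI libraries and at 15.6 and 16.1 in the control libraries. Both GMI libraries were below both controls, by a gap of 5.70 FPKM that was 3.35 times the range between the GMI libraries. The log2 fold change of TGFB2 was -0.75 (SE 0.093, adjusted p = 0.00439), which placed it at rank 101 from the lowest among the 11598 genes tested. In these bulk samples, fewer cells that make a transcript and less of it per cell cannot be told apart. The TGFB1 call was lost when control replicate 1 (adjusted p = 0.0722) or control replicate 2 (0.0864) was left out, and so was that of TGFB2 (0.0685 and 0.0856), at log2 fold changes of 0.45, 0.43, -0.77 and -0.73.

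TGFB3, the remaining TGF-β ligand gene, lay below the filter, with 0.23 and 0.19 FPKM in the GMI libraries and 0.26 and 0.38 in the control libraries. The 3 ligand genes together summed to 78.3 and 80.2 FPKM in the GMI libraries and 67.5 and 67.3 in the control libraries. TGFB2 made up 10.5% and 12.4% of that sum in the GMI libraries and 23.1% and 24.0% in the control libraries, with TGFB1 making up 89.2% and 87.4% after GMI and 76.5% and 75.5% in controls. The ratio of TGFB1 to TGFB2 was 8.51 and 7.07 in the GMI libraries, against 3.31 and 3.15 in the control libraries. The groups did not overlap in the sum, in the shares of TGFB1 and TGFB2 or in the ratio. These single values per library were not tested, since an exact permutation test of 2 against 2 libraries cannot give a two-sided p below 0.33.

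**Figure D2:**
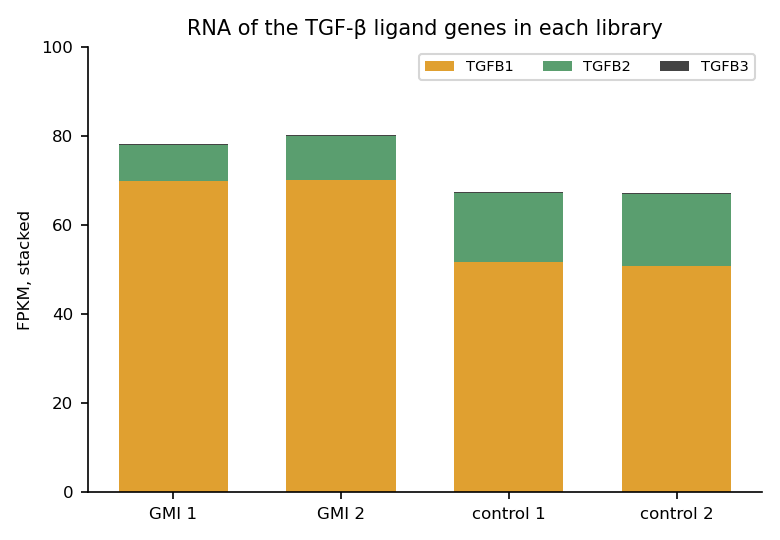
FPKM of TGFB1, TGFB2 and TGFB3 stacked for each of the 4 libraries. The stacks reach 78.3 and 80.2 FPKM in the GMI libraries and 67.5 and 67.3 in the control libraries, with a thinner TGFB2 layer after GMI, and TGFB3 is barely visible.

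Because the 2 ligand genes went opposite ways, the 250 bases before their annotated starts are shown, from the RefSeq promoter table on GRCh38.p14 (the FPKM were made on GRCh37). Short motifs, 3 in all, were searched on both strands: CAGAC (the SMAD box), TGANTCA (AP-1) and GGAATG (TEAD), and matches are in capitals. The TGFB1 window lies at chr19:41353923-41354172 on the minus strand and the TGFB2 window at chr1:218345086-218345335 on the plus strand, both written 5′ to 3′. The RefSeq start of TGFB1 is 11 bases from the nearest principal transcript start in GENCODE 29 and that of TGFB2 899 bases.
TGFB1: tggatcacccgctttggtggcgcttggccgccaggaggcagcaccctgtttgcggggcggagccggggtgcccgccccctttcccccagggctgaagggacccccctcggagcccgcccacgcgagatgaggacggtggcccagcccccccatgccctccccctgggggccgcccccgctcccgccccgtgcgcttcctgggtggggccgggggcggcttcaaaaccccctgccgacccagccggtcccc
TGFB2: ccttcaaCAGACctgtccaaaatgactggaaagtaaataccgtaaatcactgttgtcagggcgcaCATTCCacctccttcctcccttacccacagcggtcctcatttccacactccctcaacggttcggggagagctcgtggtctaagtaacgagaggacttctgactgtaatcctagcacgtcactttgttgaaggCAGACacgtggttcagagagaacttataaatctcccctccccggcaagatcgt
The TGFB2 window held 2 SMAD boxes and 1 TEAD motif, and its bases were 50.4% G or C. The TGFB1 window held none of the 3 motifs (0 matches each) and was 76.8% G or C, where the median of all 35116 windows in the table was 58.0%. Of all windows, 38.0% held a SMAD box, 6.57% an AP-1 motif and 11.9% a TEAD motif. Windows were found for 9 of the 10 genes, and for each gene only that nearest to a principal transcript start was taken. Of these 9, 4 held a SMAD box, 0 an AP-1 motif and 1 a TEAD motif. The SMAD boxes were in the windows of TGFB2, TGFBR1, SKIL and LTBP1. The windows of PMEPA1 and TGFBI, whose RNA fell like that of TGFB2, held 0 matches to each motif. Whether motifs go with the direction of change was not tested. A match describes the letters in the window and is not a site of binding.

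LTBP1 (ENSG00000049323), a latent TGF-β binding protein that ties the latent ligand to the matrix, stood at 8.94 and 9.68 FPKM in the GMI libraries and at 7.74 and 7.50 in the control libraries. Both GMI libraries were above both controls, by a gap of 1.20 FPKM, but the test over all genes was not passed (log2 fold change 0.26, SE 0.074, adjusted p = 0.0611). With a filter at a mean of 5 FPKM, which leaves 6070 genes to adjust over, the adjusted p of LTBP1 was 0.0397.

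Neither receptor gene passed. TGFBR1 (ENSG00000106799), the type I receptor kinase, stood at 5.95 and 6.46 FPKM in the GMI libraries and at 4.75 and 5.05 in the control libraries. The groups did not overlap, and the mean was 26.6% higher (log2 fold change 0.29, SE 0.080, adjusted p = 0.0565). TGFBR1 crossed the threshold with median centring (adjusted p = 0.0448) and with the filter at a mean of 5 FPKM (0.0354), and its log2 fold change was 0.18 at a pseudocount of 5. TGFBR2 (ENSG00000163513), the type II receptor kinase that binds ligand first, stood at 36.3 and 33.0 FPKM in the GMI libraries and at 37.1 and 41.3 in the control libraries. The nearest libraries of the groups were 0.78 FPKM apart, 0.18 times the range between the controls (log2 fold change -0.17, SE 0.079, adjusted p = 0.187). The 95% confidence interval of the TGFBR2 fold change ran between -0.36 and 0.02 on the log2 scale, so a fall of that size could not be told from no change with 2 libraries a group. The TGFBR2 fold change was -0.10 without control replicate 2 and -0.11 without GMI replicate 2. TGFBR2 RNA was more abundant than TGFBR1 RNA in every library, with a ratio of 6.10 and 5.11 in the GMI libraries and 7.80 and 8.18 in the control libraries.

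SMAD3 (ENSG00000166949), the transducer that binds DNA after phosphorylation by the type I receptor, stood at 37.4 and 34.9 FPKM in the GMI libraries and at 40.9 and 43.4 in the control libraries. Both GMI libraries were below both controls by a gap of 3.47 FPKM, 1.36 times the larger range within a group. The test was not passed (log2 fold change -0.22, SE 0.066, adjusted p = 0.0728), but with the filter at a mean of 5 FPKM the adjusted p of SMAD3 was 0.0411. SMAD2, its partner, stood at 4.18 and 4.91 FPKM in the GMI libraries and at 4.52 and 4.33 in the control libraries, with overlapping groups (log2 fold change 0.03, adjusted p = 0.864). SMAD3 RNA was thus 8.96 and 7.10 times that of SMAD2 in the GMI libraries and 9.05 and 10.0 times in the control libraries.

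Of the inhibitors, PMEPA1 fell and SKIL did not pass. PMEPA1 (ENSG00000124225), a membrane protein that TGF-β induces and that keeps SMADs from the receptor, stood at 46.9 and 47.3 FPKM in the GMI libraries and at 80.7 and 83.0 in the control libraries. The gap between the groups, 33.3 FPKM, was 14.4 times the larger range within a group. The log2 fold change of PMEPA1 was -0.78 (SE 0.056, adjusted p = 0.000873), at rank 92 from the lowest among all genes tested. Its call held without any 1 library, with adjusted p between 0.00279 without GMI replicate 1 and 0.0444 without control replicate 2, but not without a filter on low values (0.0520). SKIL (ENSG00000136603), which encodes the SMAD corepressor SnoN, stood at 2.22 and 3.13 FPKM in the GMI libraries and at 2.66 and 3.15 in the control libraries. The groups overlapped, and the log2 fold change of -0.10 (SE 0.14, adjusted p = 0.68) became 0.08 without GMI replicate 1. For SKIL the 95% confidence interval lay between -0.43 and 0.23.

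The window before the PMEPA1 start is shown since its call was the only one of the 10 to hold with any 1 library left out, and since the gene is used as a readout of SMAD signalling. It lies at chr20:57710016-57710265 on the minus strand of GRCh38.p14. Of the 4 windows the RefSeq table has for PMEPA1, its start is the nearest to a principal transcript start in GENCODE 29, at 113 bases.
PMEPA1: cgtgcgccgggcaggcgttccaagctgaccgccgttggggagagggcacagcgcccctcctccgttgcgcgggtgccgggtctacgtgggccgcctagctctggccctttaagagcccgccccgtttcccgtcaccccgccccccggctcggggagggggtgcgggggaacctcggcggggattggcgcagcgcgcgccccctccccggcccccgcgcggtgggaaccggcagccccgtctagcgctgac
The PMEPA1 window was 76.8% G or C, as was the TGFB1 window, and held 0 matches to each of the 3 motifs, so there are no capitals. These counts cover this window alone, and say nothing of the gene's other windows or of bases further away.

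Both target genes fell. TGFBI (ENSG00000120708), a secreted matrix protein named for its induction by TGF-β, stood at 395 and 367 FPKM in the GMI libraries and at 494 and 515 in the control libraries. The groups were 99.5 FPKM apart at their nearest, 3.64 times the range between the GMI libraries. The log2 fold change of TGFBI was -0.40 (SE 0.063, adjusted p = 0.00925). SNAI2 (ENSG00000019549), the transcriptional repressor Slug, which lowers E-cadherin, stood at 6.19 and 6.04 FPKM in the GMI libraries and at 10.1 and 11.3 in the control libraries. The gap of 3.87 FPKM was 3.17 times the range between the controls (log2 fold change -0.71, SE 0.080, adjusted p = 0.00316). The TGFBI call was lost when control replicate 1 (adjusted p = 0.0872) or control replicate 2 (0.120) was left out, and that of SNAI2 when control replicate 2 was (0.0701). CDH1, the E-cadherin gene, named after its values were seen, stood at 2.55 and 2.35 FPKM in the GMI libraries and at 2.16 and 1.96 in the control libraries (log2 fold change 0.17, adjusted p = 0.259).

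On the FPKM scale the mean of TGFB2 fell by 42.9%, that of PMEPA1 fell by 42.4% and that of SNAI2 fell by 42.7%, while that of TGFBI fell by 24.5%. The ratio of TGFBI to PMEPA1 was 8.42 and 7.76 in the GMI libraries and 6.13 and 6.20 in the control libraries. The log2 fold changes of PMEPA1, TGFB2 and SNAI2 lay at the percentiles 0.785, 0.862 and 0.992 of all genes tested, and that of TGFB1 at 94.5. Whether the fold changes of single members differ from each other was not tested.

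**Figure D3:**
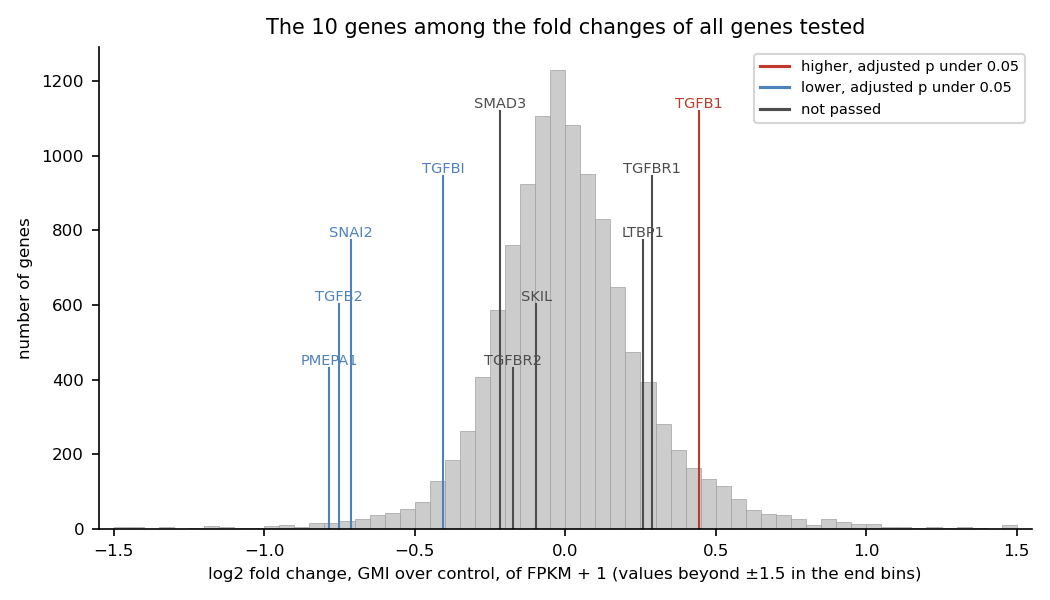
Number of genes (vertical axis) by log2 fold change, GMI over control, for the 11598 genes tested, with lines at the values of the 10 genes. PMEPA1, TGFB2 and SNAI2 sit in the left tail at -0.71 or lower, TGFB1 at 0.44 sits on the right, and SKIL, TGFBR2 and SMAD3 lie within the body of the distribution.

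The fragments behind these values differed widely. With exon lengths from GENCODE 29, which are not the authors' own, TGFBI rested on about 67376 and 59893 fragments in the GMI libraries and 79344 and 96864 in the control libraries. SKIL rested on about 378 and 509 in the GMI libraries and 426 and 591 in the control libraries, a counting error of 4.12% to 5.15% a library. For SNAI2 the counting error was 4.67% and 4.83% in the GMI libraries and 3.78% and 3.29% in the control libraries. These errors cover counting only. In GENCODE 29, 26.6% of the TGFB2 exon length overlaps TGFB2-OT1, a gene on the same strand. Its identifier is not among the 57905 genes listed for the libraries. Likewise 6.1% of the PMEPA1 exon length overlaps NKILA on the other strand, whose identifier is not listed either. For TGFB1, 6.64% of the exon length overlaps HNRNPUL1 on the other strand (30.1 and 26.8 FPKM in the GMI libraries, 29.8 and 31.5 in the control libraries). The strand setting of the counting is not given in the sources used here, so fragments of the NKILA and HNRNPUL1 overlaps cannot be told apart. Strand could not separate those of TGFB2 and TGFB2-OT1 under any setting.

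The rest of the pathway was read from a list of 80 genes by role that includes the 10. That list, too, was chosen with earlier results of these data known. Of its 70 other genes, 46 were above the filter, of which 7 rose, 8 fell and 31 missed the threshold. Their median log2 fold change was -0.05, beside -0.01 over all genes tested. The 7 and 8 compare with 9.3% of all genes tested called upward and 6.12% downward. Over the whole list, 8 of 56 rose and 12 fell. Fewer were called with either control replicate left out, as over all genes. Without a filter limma called 0 of 79, where 35 had an unadjusted p under 0.05. Of all 26758 genes it then called 0 upward and 1 downward, with 4500 at an unadjusted p under 0.05.

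Among the other ligand genes, 6 of 8 lay below the filter. INHBB, an activin subunit, fell to 1.40 and 1.43 FPKM in the GMI libraries, against 2.69 and 3.08 in the control libraries (log2 fold change -0.68, SE 0.098, adjusted p = 0.00708). GDF11 stood at 1.82 and 1.31 FPKM in the GMI libraries and 1.20 and 2.0 in the control libraries, with overlapping groups (-0.01, adjusted p = 0.977). The INHBB call was lost with control replicate 1 (adjusted p = 0.0611) or control replicate 2 (0.0938) left out. At this low level the size depends on the pseudocount, with a log2 fold change of -0.98 at a pseudocount of 0.1 and -0.30 at 5.

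Genes of latency and activation, leaving LTBP1 aside, had 1 up, 1 down and 5 not passed of 7 above the filter. Of all genes tested, 9.3% rose and 6.12% fell. LTBP4, of the same family as LTBP1, rose to 9.96 and 10.1 FPKM in the GMI libraries, against 6.16 and 6.32 in the control libraries (log2 fold change 0.61, SE 0.069, adjusted p = 0.00324). THBS1, thrombospondin, which can free TGF-β from its latent complex, fell to 1.97 and 1.85 FPKM in the GMI libraries, against 4.35 and 4.09 in the control libraries (-0.84, SE 0.086, adjusted p = 0.0023). FURIN, the protease that cuts the TGF-β precursor, stood at 57.5 and 55.6 FPKM in the GMI libraries and 54.3 and 55.5 in the control libraries (0.04, adjusted p = 0.668). Without control replicate 1 or 2, LTBP4 had adjusted p = 0.0651 and 0.0694 and THBS1 0.0541 and 0.0525. The log2 fold change of THBS1 was -1.10 at a pseudocount of 0.1 and -0.42 at 5.

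Of the other receptor genes 2 of 7 were above the filter and 0 passed in limma, with 0 at an unadjusted p under 0.05. Over all 11598 genes tested, 1789 passed and 3733 had an unadjusted p under 0.05. ACVR1B, an activin type I receptor, was the more abundant of them, with 3.12 and 3.48 FPKM in the GMI libraries and 2.70 and 3.03 in the control libraries (log2 fold change 0.15, adjusted p = 0.313). Likewise 0 of the 3 other genes of the SMAD group passed in limma, with 0 at an unadjusted p under 0.05.

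Among inhibitors other than PMEPA1 and SKIL, 1 rose, 1 fell and 11 did not pass of 13 above the filter. The shares over all genes tested were 9.3% up and 6.12% down. SMAD7, the inhibitory SMAD that TGF-β induces, fell to 6.60 and 6.55 FPKM in the GMI libraries, against 10.8 and 11.1 in the control libraries (log2 fold change -0.66, SE 0.068, adjusted p = 0.00233). FSTL3, a secreted protein that binds activin and related ligands, rose to 239 and 275 FPKM in the GMI libraries, against 166 and 163 in the control libraries (0.64, SE 0.077, adjusted p = 0.00402). FKBP1A, which binds the type I receptor, stood at 123 and 127 FPKM in the GMI libraries and 122 and 125 in the control libraries (0.02, adjusted p = 0.872), and its sign turned with upper quartile scaling (-0.01). With control replicate 1 or 2 left out, SMAD7 had adjusted p = 0.0547 and 0.0674, and FSTL3 0.0651 and 0.0776.

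Of the other target genes, 5 rose, 5 fell and 9 did not pass of 19 above the filter, where 9.3% of all genes tested rose and 6.12% fell. COL5A1, a fibrillar collagen chain, fell to 3.68 and 3.14 FPKM in the GMI libraries, against 7.49 and 7.88 in the control libraries (log2 fold change -0.98, SE 0.089, adjusted p = 0.00163). CTGF, a matricellular protein, fell to 1.11 and 0.84 FPKM in the GMI libraries, against 3.24 and 3.46 in the control libraries (-1.14, SE 0.11, adjusted p = 0.00179). CDKN1A, a cyclin-dependent kinase inhibitor, stood at 278 and 270.0 FPKM in the GMI libraries and 293 and 287 in the control libraries (-0.08, adjusted p = 0.358). Without control replicate 2, COL5A1 and CTGF missed the threshold (adjusted p = 0.0525 and 0.0506). With a pseudocount of 0.1 the log2 fold change of CTGF was -1.69 and that of COL5A1 -1.15, and with 5 they were -0.48 and -0.59.

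**Figure D4:**
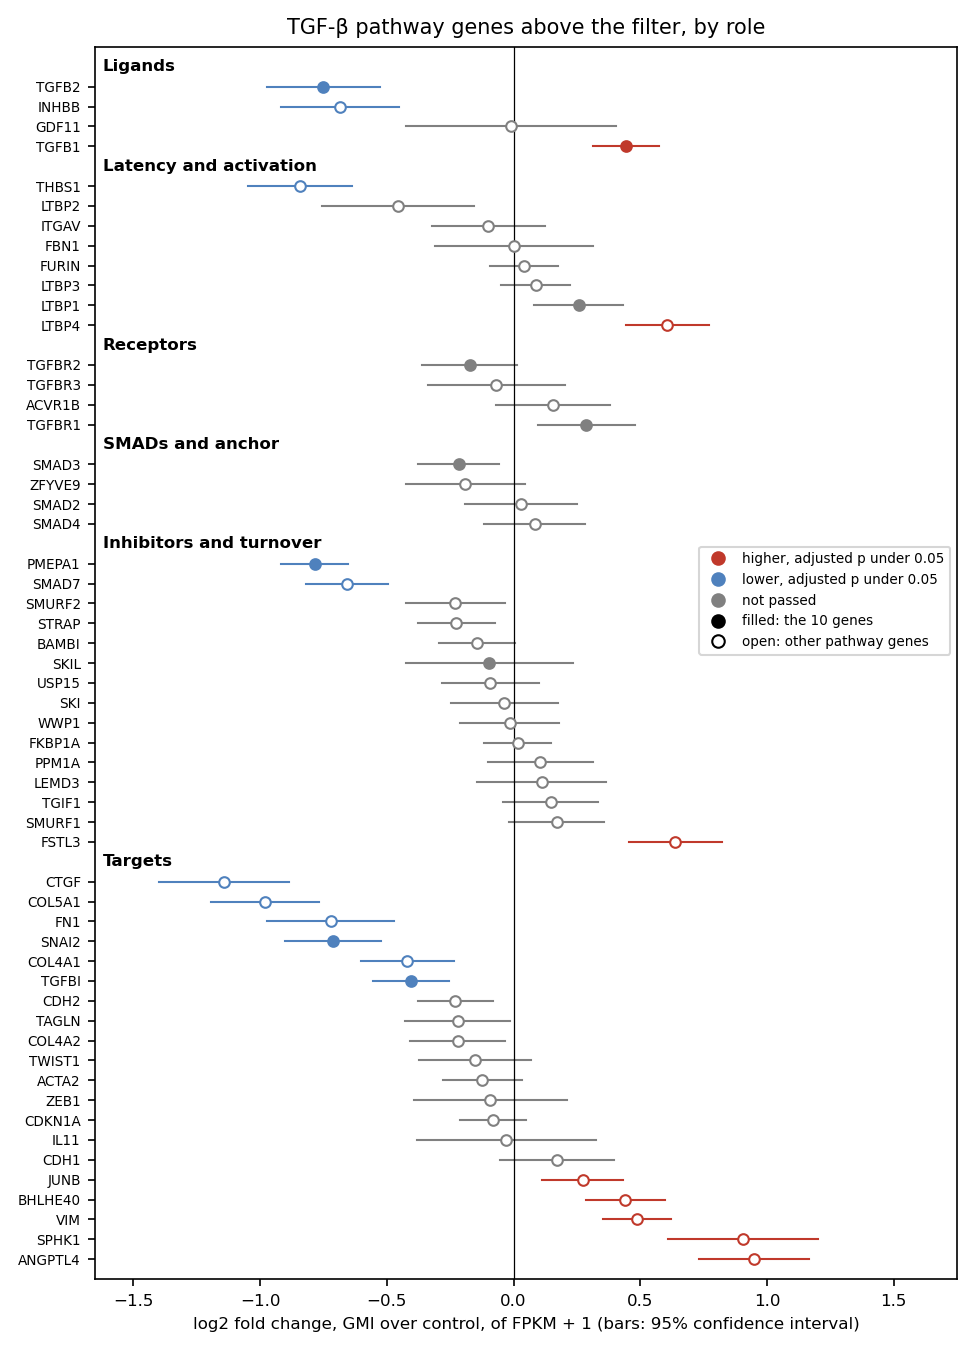
Log2 fold change of FPKM + 1, GMI over control (horizontal axis), with its 95% confidence interval, for 55 of the 56 genes of the pathway list above the filter, grouped by role. Filled points are the 10 genes and open points the rest of the list. Red marks the 8 genes that rose, blue 11 of the 12 that fell and grey the 36 that did not pass.

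**Figure D5:**
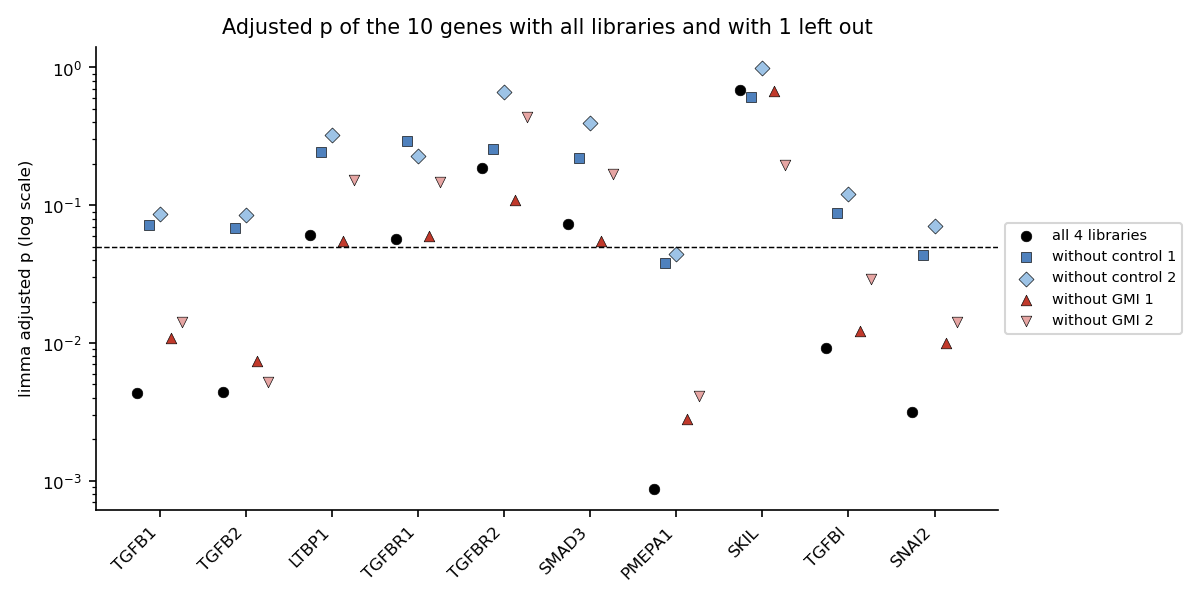
Limma adjusted p (log axis) of the 10 genes with all 4 libraries and with each left out in turn, where the dashed line is 0.05. PMEPA1 is the only gene of the 10 whose 5 values all lie below the line, and TGFB1, TGFB2 and TGFBI cross it when either control library is left out.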

How the data were processed

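RNA-seq of A549 cells was analysed in 2 GMI and 2 control libraries. The deposited values are FPKM to 2 decimals, 1 file a library. The submitters' processing notes list HTSeq 0.6.1, HISAT2 2.0.1, cutadapt 1.9.1, bcl2fastq 2.17.1.14 and the build GRCh37, with no order or role. The sources used here do not give the annotation release, gene lengths or strand setting. FPKM are shares of a library, so a change in abundant RNAs shifts the rest.

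The 10 members and the list of 80 pathway genes were chosen with earlier results of these data known. Named beyond the members were, per role, up to 3 called genes with the smallest adjusted p and the most abundant one not passed. Of these genes, 1 is not reported here, though the counts include it. Genes with at least 1 FPKM in at least 2 of 4 libraries (11598) were fitted with limma 3.58.1 (R 4.3.3) on log2(FPKM + 1), without covariates and with the spread trended on mean level, with Benjamini-Hochberg adjustment over all of them. The fit was checked on simulated data with equal spread in both groups, so that check does not cover a spread differing between groups. Depth was read from the steps of FPKM in genes up to 200 nt and below 20 FPKM, where 95.8% to 96.8% of values were whole fragments within 0.006 FPKM. On fragments of genes with about 50 or more, chi-square per degree of freedom was 9.59 between the GMI and 4.86 between the control libraries, so neither pair was 1 library given double. Alternatives were the pseudocount, the filter, scaling, the trend, each library left out and a replicate block. Tables were made with Python 3.11.15. PECAM1, an endothelial marker, was not analysed here.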

Additional observations from a re-analysis of the deposited data

How the results depend on the processing

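The directions of the 5 called genes held under all 12 alternatives. Their log2 fold changes were 0.42 to 0.45 for TGFB1, -0.87 to -0.57 for TGFB2, -0.81 to -0.74 for PMEPA1, -0.46 to -0.35 for TGFBI and -0.79 to -0.49 for SNAI2. These ranges mix scales. The smallest sizes of TGFB1, TGFB2, PMEPA1 and SNAI2 came from a pseudocount of 5, and the largest of SNAI2 from 0.1. With 1 library left out, the number of members called ranged between 0 and 1 upward and between 1 and 4 downward, that of pathway list genes between 0 and 8 upward and 2 and 13 downward, and that of all genes between 101 and 988 upward and 44 and 636 downward. These fits lend a lone library the spread of the remaining pair. Over all genes, too, calls were fewest when either control library was left out. With no filter, limma called 0 members (8 at an unadjusted p under 0.05), 0 pathway list genes (35) and, of 26758 genes, 0 upward and 1 downward, with 4500 at an unadjusted p under 0.05, and the cause was not tested. Members called upward were 2 with median centring and 3 at a mean of at least 5 FPKM. Signs turned in 4 genes, which had an adjusted p above 0.05 under every alternative run. With 1 library left out, log2 fold changes ranged between -0.28 and 0.084 for SKIL, -0.066 and 0.12 for SMAD2, -0.23 and 0.21 for GDF11 (0.13 without GMI replicate 2) and -0.0058 and 0.038 for FKBP1A (-0.0023 without control replicate 1), and FKBP1A was at -0.0072 with upper quartile scaling.

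With the replicate number as a replicate block, 1 member rose and 4 fell, as without it, and 1191 genes rose and 809 fell, against 1079 and 710. Over genes, the differences between replicates 1 and 2 correlated at -0.044 between GMI and control. Such a value cannot tell whether libraries of the same number were handled together, since that need not shift genes in common. The sources used here do not give it either. Counting error for SKIL was between 4.12% and 5.15% a library.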

Other observations

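The pathway list's targets held genes that rose beside those that fell, and these are named after their values were seen. ANGPTL4, an inhibitor of lipoprotein lipase, rose to 23.4 and 27.7 FPKM in the GMI libraries, against 13.1 and 12.4 in the control libraries (log2 fold change 0.95, limma adjusted p = 0.00184). SPHK1, sphingosine kinase, rose to 2.60 and 3.46 FPKM in the GMI libraries, against 1.16 and 1.12 in the control libraries (0.90, adjusted p = 0.00611). VIM, the intermediate filament vimentin, rose to 751 and 731 FPKM in the GMI libraries, against 529 and 528 in the control libraries (0.49, adjusted p = 0.00341). The transcription factor genes BHLHE40 and JUNB rose as well. BHLHE40 stood at 76.3 and 79.2 FPKM in the GMI libraries and 54.5 and 59.6 in the control libraries (0.44, adjusted p = 0.00805), and JUNB at 32.2 and 35.1 in the GMI libraries and 27.9 and 27.4 in the control libraries (0.27, adjusted p = 0.0388). Beside COL5A1, further matrix genes of the list fell. FN1, fibronectin, stood at 4.34 and 3.48 FPKM in the GMI libraries and 6.75 and 7.39 in the control libraries (-0.72, adjusted p = 0.00756), and COL4A1 at 4.44 and 4.16 in the GMI libraries and 5.97 and 6.20 in the control libraries (-0.42, adjusted p = 0.016). Its neighbour chain COL4A2 stood at 20.6 and 18.4 FPKM in the GMI libraries and 22.04 and 23.7 in the control libraries and did not pass (-0.22, adjusted p = 0.108). With control replicate 2 left out, 0 genes of the whole list were called upward and 2 downward in limma, with 22 at an unadjusted p under 0.05, and with control replicate 1 left out 1 and 5.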
